A study of Homo sapiens with 6 samples.

Results

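SORBS2, SORBS3, SH3RF1, SH3RF2 and SH3RF3 are scaffold genes whose proteins carry several SH3 domains. These 5 genes were taken by symbol from a table of 58735 gene rows and compared between PANC1OR, an oxaliplatin-resistant subline, and PANC1, its parental human pancreatic ductal carcinoma line. Both were grown in DMEM with fetal bovine serum, and each had 3 libraries. The PANC1 cells were untreated. PANC1OR came from PANC1 cells passaged repeatedly under oxaliplatin, a DNA-damaging platinum compound, at doses that were stepped up until the cells grew stably also without the drug. RNA was taken from 3 cultures of each. With 1 resistant line, a p-value sets the difference against the spread among cultures of that line and of its parent. The sources used here do not say whether oxaliplatin was in the medium when RNA was taken. The 5 genes were chosen by their counts and fold changes in this same comparison, in particular the near absence of SORBS2 and SH3RF3 reads in PANC1OR. Their own values are therefore given as a description, and no test of them is read as a result.

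The SORBS proteins join a sorbin homology region to SH3 domains at their C-terminal end. They bind vinculin and other proteins of focal adhesions and connect these to actin and to tyrosine kinases. SORBS2, also called ArgBP2, binds the ABL kinases, and in pancreatic cancer cells it has been described as a restraint on migration. SORBS3 is vinexin. The SH3RF proteins are ubiquitin ligases with a RING domain beside their SH3 domains. SH3RF1, also called POSH, binds active RAC1 and holds together the kinases of the JNK stress cascade. SH3RF3 is its close relative POSH2, and SH3RF2 is an inhibitor of protein phosphatase PP1.

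The libraries held 12623721 to 26394388 reads for PANC1OR and 10199268 to 15875431 for PANC1. Levels are given in CPM, each gene's share of the reads after scaling of the libraries. PANC1OR replicate 3 stood apart from replicates 1 and 2 along GC content: by the median, genes with over 60% GC were 1.32 higher there in log2 and genes under 40% GC had a difference of -0.96. PANC1 replicate 2 differed the same way from replicates 1 and 3, by 0.34 and -0.25. The keratin genes KRT8 and KRT18, markers of simple epithelium, were at 429 ± 251 and 315 ± 114 CPM in PANC1OR and at 484 ± 256 and 338 ± 104 CPM in PANC1 (SD, n = 3). Summed levels of 6 duct carcinoma markers were 553 to 1216 CPM in PANC1OR and 845 to 1731 in PANC1, and 2 of the 6 were called lower in PANC1OR. These were the keratin gene KRT19, at 23.2 ± 11.8 CPM in PANC1OR and 326 ± 121 in PANC1, and the E-cadherin gene CDH1, at a mean of 5.67 CPM in PANC1OR and 13.2 in PANC1. KRT7, a further keratin gene of the 6, was at 1.82 ± 1.37 CPM in PANC1OR and 0.747 ± 0.443 in PANC1. EPCAM was at 8.13 ± 2.055 CPM in PANC1OR and 14.1 ± 1.69 in PANC1, and neither of these 2 was called. Of 8 fibroblast markers 3 were abundant enough to test, and none was called. Their sum was 115 to 299.6 CPM in PANC1OR and 83.5 to 99.4 in PANC1, most of it from the collagen gene COL1A1, while FAP had no reads in any library. The 8 leukocyte and endothelial markers summed to 3.36 to 7.27 CPM in PANC1OR and 1.121 to 1.53 in PANC1, with CD14 called higher in PANC1OR and CD3E without reads, and their part in the results was not tested, nor was that of the fibroblast markers. SORBS genes are prominent in striated muscle. Of 9 striated muscle markers only TTN was tested, and MYH7, MYH2 and TNNT2 had no reads. The sum was 47.4 to 82.6 CPM in PANC1OR and 47.5 to 90.1 in PANC1. Nearly all of it came from TTN, whose exons add up to 118976 bases.

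SORBS2 was almost absent from the resistant line. Its reads numbered 0, 1 and 0 in PANC1OR replicates 1 to 3, against 250, 118 and 218 in PANC1 replicates 1 to 3. Every PANC1 library held many reads and no PANC1OR library held more than 1. In CPM these were 0, 0.0625 and 0 in PANC1OR against 15.6, 12.3 and 13.3 in PANC1. The ratio of PANC1 to PANC1OR was 766, with a 95% counting interval of 137 to 30300 that covers counting error only. The gene (ENSG00000154556) spans 371 kb on the minus strand of chromosome 4, from 185585444 to 185956652 (GRCh38, as for all positions). In bulk RNA, fewer cells that express a gene and less of its RNA per cell cannot be told apart.

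SH3RF3 had the same pattern. Its reads numbered 1, 0 and 0 in PANC1OR and 166, 99 and 172 in PANC1. In PANC1 its level was nearly constant, at 10.33, 10.34 and 10.52 CPM, a coefficient of variation of 1.01%, against 0.0374, 0 and 0 CPM in PANC1OR. The ratio of PANC1 to PANC1OR was 571 (95% counting interval 102 to 22610). SH3RF3 (ENSG00000172985) spans 375 kb on the plus strand of chromosome 2, from 109129205 to 109504634. Among the log2 fold changes of all 18751 tested genes, counted from the lowest, SORBS2 had rank 4 and SH3RF3 rank 6. These values were among those that led to the choice of the genes.

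SH3RF1 went the other way. It was at 103.8, 104.5 and 106.2 CPM in PANC1OR and at 15.9, 13.2 and 17.0 CPM in PANC1. The means were 104.8 ± 1.23 CPM in PANC1OR and 15.4 ± 1.98 in PANC1, 6.83-fold apart, with a log2 fold change of 2.77 ± 0.19 (SE). The 3 PANC1OR libraries lay within 1.02-fold of each other, although their totals ranged from 12623721 to 26394388 reads. SH3RF1 (ENSG00000154447) lies at 169094259 to 169270956 on the minus strand of chromosome 4. It is thus on the same chromosome as SORBS2, 16.31 Mb away, and had the opposite direction.

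SH3RF2 was higher in PANC1OR by a smaller step. Its levels were 36.2, 32.7 and 43.8 CPM in PANC1OR and 21.6, 18.1 and 19.9 CPM in PANC1. All PANC1OR libraries lay above all PANC1 libraries, with a fold of 1.89 between the means and a log2 fold change of 0.92 ± 0.21 (SE). SH3RF2 (ENSG00000156463) lies at 145936578 to 146081791 on chromosome 5.

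SORBS3 was at 29.5, 24.17 and 64.2 CPM in PANC1OR and at 20.6, 24.13 and 20.3 CPM in PANC1. The lines touched without overlapping, and 1 library, PANC1OR replicate 3, carried most of the difference. The means were 39.3 ± 21.7 CPM in PANC1OR and 21.7 ± 2.14 CPM in PANC1 (SD, n = 3 each), and the log2 fold change was 0.86 ± 0.37 (SE). Without PANC1OR replicate 3 it was 0.31. SORBS3 (ENSG00000120896) lies at 22544986 to 22575788 on chromosome 8.

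**Figure D1:**
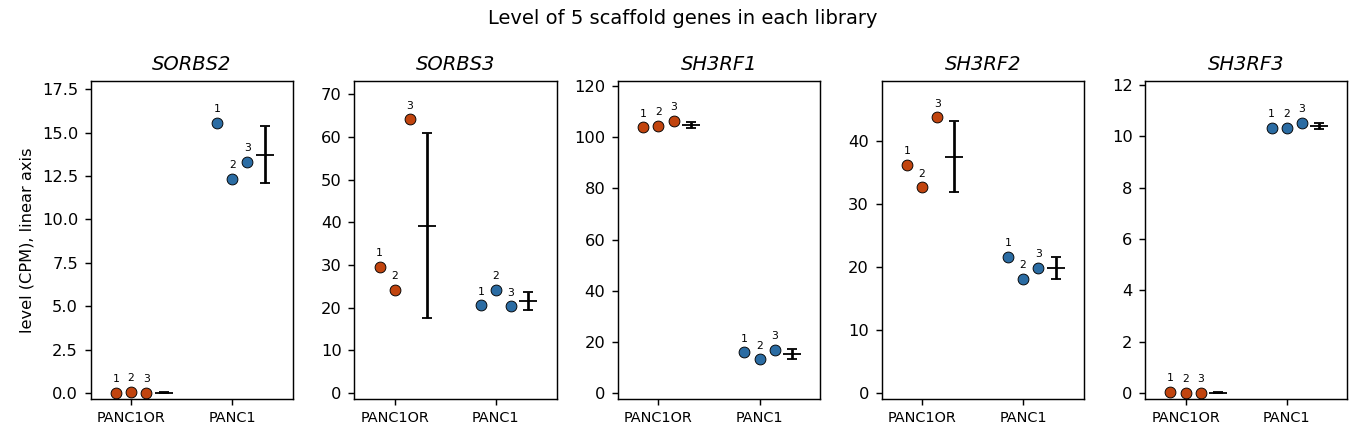
Level of each scaffold gene in CPM on a linear axis from 0, with its own range per panel. Points are the libraries, numbered by replicate, with PANC1OR left of PANC1, and bars are the mean ± SD of 3 libraries. SORBS2 and SH3RF3 lie at or next to 0 in PANC1OR, SH3RF1 lies near 105 CPM there, and SORBS3 has 1 high library, replicate 3.

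With all 6 libraries, edgeR's quasi-likelihood test called 17.8% of all tested genes, 10.3% higher and 7.5% lower in PANC1OR. Of the 5 scaffold genes, all of which passed the filter on low counts, 2 were called higher, 2 lower, and SORBS3 was not called. Over 13 alternative fits, SORBS2, SH3RF1 and SH3RF3 were called in all 13, SH3RF2 in 8 and SORBS3 in 2. The libraries of the lines did not overlap for any of the 5, as for 36.5% of all tested genes. Since this contrast served to choose the genes, nothing is read from these counts.

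The high SORBS3 value of PANC1OR replicate 3 stood where genes of its base composition stood. The longest SORBS3 transcript has 62.9% GC, and its log2 level in that library was 1.26 above the mean of replicates 1 and 2. The median of 616 tested genes within 1 percentage point of that GC was 1.33. SH3RF2, at 47.9% GC, was 0.35 higher in that library, against a median of 0.00 for genes of like GC. SH3RF1, at 46.2% GC, was 0.03 higher, against a median of -0.15. When the GC trend was fitted per library and entered as an offset, the log2 fold change of SORBS3 was 0.76 and that of SH3RF2 0.91.

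**Figure D2:**
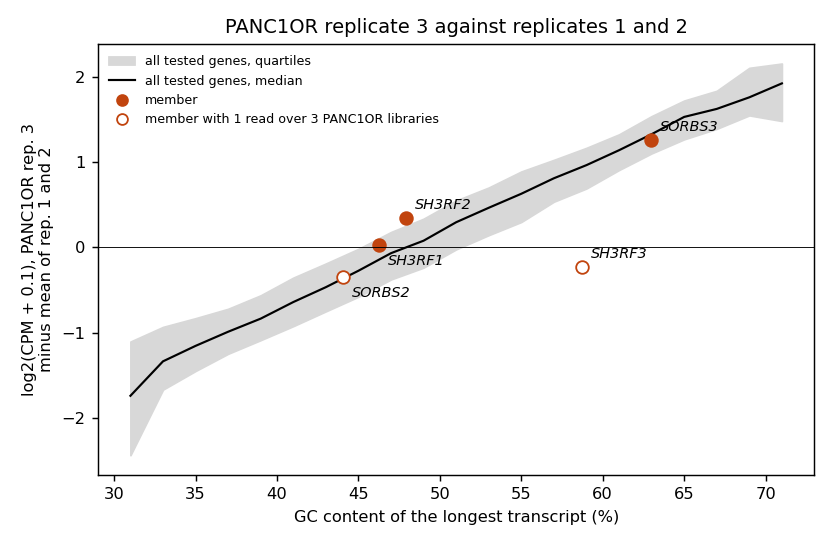
Difference of PANC1OR replicate 3 from the mean of replicates 1 and 2, in log2(CPM + 0.1), against the GC content in percent of the longest transcript. The line is the median and the band the quartiles of all tested genes in GC bins, filled points are SORBS3, SH3RF1 and SH3RF2, and open points are SORBS2 and SH3RF3, which had 1 read over the PANC1OR libraries. SORBS3 lies at 1.26, next to the line.

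To compare genes with each other, levels were divided by the summed exon length, giving CPM per kb. Among the SH3RF genes in PANC1OR, SH3RF1 was at 19.2 ± 0.224, SH3RF2 at 5.21 ± 0.786 and SH3RF3 at 0.00210 ± 0.00363 CPM per kb (SD, n = 3). In PANC1, SH3RF1 was at 2.80 ± 0.361 and SH3RF2 at 2.76 ± 0.245 CPM per kb by this length, which did not differ beyond their spread, and SH3RF3 was at 1.75 ± 0.0177. The summed level of the family was 24.4 ± 0.975 CPM per kb in PANC1OR and 7.31 ± 0.571 in PANC1. SH3RF1 made up 78.7 ± 2.35% of that sum in PANC1OR and 38.3 ± 2.26% in PANC1. SH3RF3 made up 0.00873 ± 0.0151% in PANC1OR and 24.0 ± 1.85% in PANC1.

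On the same scale SORBS3 was at 5.03, 4.12 and 10.9 CPM per kb in PANC1OR and at 3.50, 4.11 and 3.46 CPM per kb in PANC1. SORBS2 was at 0.000813 ± 0.00141 CPM per kb in PANC1OR and 0.536 ± 0.0647 in PANC1 (SD, n = 3). SORBS3 was thus above SORBS2 in every library of both lines.

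**Figure D3:**
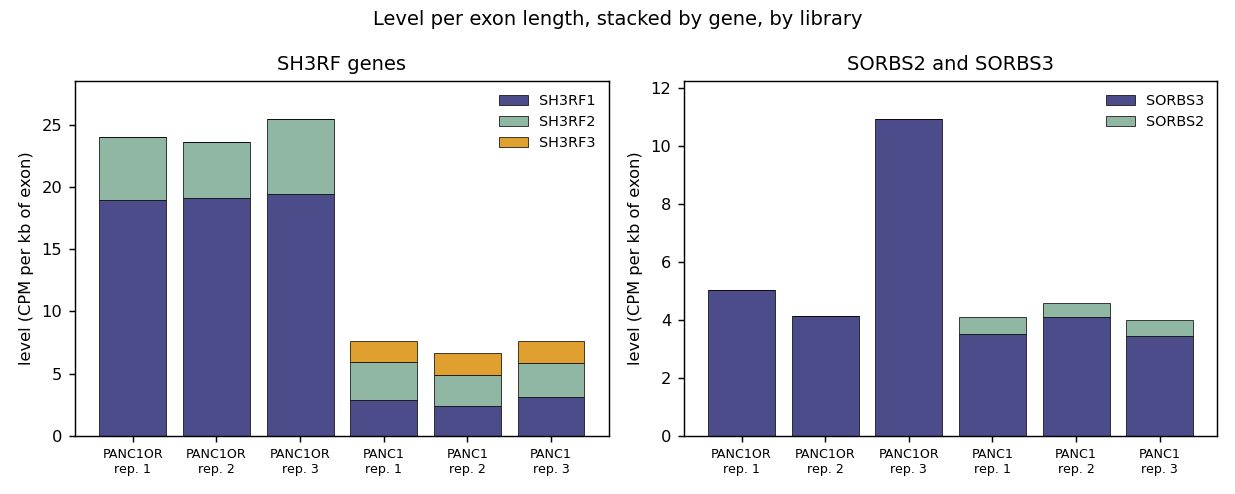
Levels in CPM per kb of summed exon length, stacked by gene, for the SH3RF genes at left and SORBS2 and SORBS3 at right, with the 3 PANC1OR libraries left of the 3 PANC1 libraries in each panel. The SH3RF sums are near 24 in PANC1OR and near 7 in PANC1. The bars at right are almost wholly SORBS3 in PANC1OR and hold a visible share of SORBS2 in PANC1.

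The order of levels in PANC1 depended on the length used. With the longest transcript in place of all exons, SH3RF2 was at 3.54 ± 0.315 and SH3RF1 at 3.00 ± 0.386 CPM per kb, with SH3RF2 the higher. The choice mattered most for SORBS2, whose annotated exons add up to 25.6 kb while its longest transcript has 8.47 kb. In PANC1 it was at 0.536 ± 0.0647 CPM per kb by summed exons, below SH3RF3, and at 1.62 ± 0.196 by the longest transcript, within its spread of SH3RF3 at 1.75. By summed exons, SORBS3 had the highest mean of the 5 genes in PANC1, at 3.69 ± 0.365. Neither length changes a ratio between the lines.

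The starts of the genes with the most different levels are shown because SORBS2 and SH3RF3 were both nearly absent from PANC1OR while SH3RF1 was high there. RefSeq windows on GRCh38.p14 run from 250 bases before to 50 bases after a transcript start. Windows of 4 of the 5 genes were examined, and SORBS3 was left out. Capitals mark CG dinucleotides, the sites of DNA methylation, which was not measured here. The SORBS2 window is that of its outermost start, at chr4:185956323-185956622 on the minus strand, the SH3RF3 window is at chr2:109128955-109129254 on the plus strand, and the SH3RF1 window is at chr4:169270907-169271206 on the minus strand.
SORBS2: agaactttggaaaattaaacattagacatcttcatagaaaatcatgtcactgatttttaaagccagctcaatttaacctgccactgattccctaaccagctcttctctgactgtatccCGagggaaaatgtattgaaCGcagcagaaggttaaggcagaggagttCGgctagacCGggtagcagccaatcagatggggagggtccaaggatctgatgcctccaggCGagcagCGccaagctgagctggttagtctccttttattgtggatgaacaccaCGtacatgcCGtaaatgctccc
SH3RF3: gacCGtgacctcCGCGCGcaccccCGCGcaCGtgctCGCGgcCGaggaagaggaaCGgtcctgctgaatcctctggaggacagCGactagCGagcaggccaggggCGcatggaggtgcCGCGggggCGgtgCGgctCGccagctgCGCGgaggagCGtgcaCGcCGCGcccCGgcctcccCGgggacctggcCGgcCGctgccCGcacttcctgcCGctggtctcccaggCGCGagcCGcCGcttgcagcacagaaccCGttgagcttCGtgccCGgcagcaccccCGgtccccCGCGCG
SH3RF1: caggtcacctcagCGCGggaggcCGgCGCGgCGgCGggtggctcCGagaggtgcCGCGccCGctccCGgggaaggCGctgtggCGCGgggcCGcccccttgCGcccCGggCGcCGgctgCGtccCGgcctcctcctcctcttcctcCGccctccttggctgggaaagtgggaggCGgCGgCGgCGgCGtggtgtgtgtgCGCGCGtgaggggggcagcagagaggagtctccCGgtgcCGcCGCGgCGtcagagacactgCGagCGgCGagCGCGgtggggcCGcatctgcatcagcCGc
The windows of the nearly absent genes were unlike each other. The SORBS2 window has 8 CG dinucleotides and 47.0% GC, and the SH3RF3 window has 42 and 76.0% GC. The SH3RF1 window, from the gene that was high in PANC1OR, is close to that of SH3RF3, with 43 CG dinucleotides and 78.0% GC. The median of 35116 windows is 14, and 5.85% of windows have at least as many as SH3RF3. RefSeq lists 8 starts of SORBS2, whose windows have 2 to 8 CG dinucleotides, and the counts do not show which start was used. SH3RF2 has 9 in its window.

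A search of both strands for GGGCGG, the core of the Sp1 site, found 2 in the SH3RF1 window, 1 in that of SH3RF3 and 0 in those of SH3RF2 and of the 8 SORBS2 starts. It occurs in 44.95% of all windows. TGANTCA, with any base at N, is a looser form of the AP-1 site through which JUN acts, and occurs in 7.71% of windows. Its matches need not be AP-1 sites. It was found in 1 of the 8 SORBS2 windows, with 2 matches, and in none of the other genes. TATAAA, which 11.5% of windows hold, was found in 1 other SORBS2 window. These matches describe the letters of the windows only.

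The annotated transcript on the far side of the SH3RF3 start was also without reads in PANC1OR. SH3RF3-AS1, a long non-coding RNA read in the opposite direction from a start 275 bases away, had 0, 0 and 0 reads in PANC1OR and 12, 10 and 21 in PANC1. Against a floor of 3 reads over the PANC1OR libraries it was at least 18.7-fold lower there. It was called lower by edgeR's test (adjusted p = 0.00305), also in each fit without 1 library. It passed the filter on low counts only through its PANC1 reads, so only a lower call was possible. Its p-value is therefore given as a description. The sources used here do not give the strand setting of the counting, so reads of a gene and of a partner on the opposite strand cannot be told apart where they overlap.

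Genes inside the span of SORBS2 had few reads. SORBS2-AS1 had 0 reads over the PANC1OR libraries and 9 over the PANC1 libraries, and the overlapping ENSG00000235902 had 0 in PANC1OR and 11 in PANC1. Inside SH3RF3, the pseudogene SNRPGP9 had 1 read in PANC1OR and 13 in PANC1. It lies on the same strand as SH3RF3, so its reads cannot be told apart from RNA of SH3RF3 itself. Inside SH3RF1, the long non-coding RNA ENSG00000251171 on the opposite strand was at 4.22 ± 1.90 CPM in PANC1OR and 0.693 ± 0.512 in PANC1 (SD, n = 3) and rose by 2.50 ± 0.59 in log2 (adjusted p = 0.0220). This call was lost without PANC1OR replicate 2 (adjusted p = 0.0521), PANC1 replicate 1 (0.0753) or PANC1 replicate 3 (0.0658). Its level in CPM was below that of SH3RF1. That comparison is not divided by exon length, which is 637 bases for ENSG00000251171 and 5472 for SH3RF1.

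Tested genes beside the scaffold genes were examined 5 to a side. Of these 50 neighbours, 9 were called higher and 6 lower in PANC1OR, next to 17.8% of all tested genes called, and the median log2 fold change was 0.21, against 0.04 for all tested genes. The neighbours had 26 calls without PANC1OR replicate 3, where 44.1% of all genes were called. They had 8 or 9 without PANC1OR replicate 1 or 2 or PANC1 replicate 1 or 3. These last fits also called smaller shares of all genes, 12% without PANC1OR replicate 1 and 12.5% without PANC1OR replicate 2. Of the 10 neighbours of SORBS2, 2 were called higher and 2 lower. PDLIM3, an actin-associated LIM protein gene and the nearest on its downstream side, had 1, 1 and 0 reads in PANC1OR and 13, 11 and 13 in PANC1 (adjusted p = 0.00206). It remained called in each fit without 1 library. PDLIM3 too passed the filter on low counts only through its PANC1 reads, so only a lower call was possible. CYP4V2, a fatty acid hydroxylase gene on the other side, was at 3.73 ± 1.17 CPM in PANC1OR and 5.71 ± 0.967 in PANC1 (adjusted p = 0.232). Further out, the cadherin-like gene FAT1 stood at -0.78 ± 0.21 (adjusted p = 0.0397) and the antisense LRP2BP-AS1 at 1.43 ± 0.37 (adjusted p = 0.0320), both calls being lost without several libraries. FAT1 was not called without PANC1OR replicate 1 or 2 or PANC1 replicate 1 or 3 (adjusted p of 0.0857 to 0.159), and LRP2BP-AS1 was called only without PANC1OR replicate 3 (0.0779 to 0.150 otherwise). TRIML2, the fourth tested gene on the FAT1 side, had 884 reads in PANC1OR and 1 in PANC1.

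Of the 10 neighbours of SH3RF1, 3 were called higher and 2 lower. CBR4, a mitochondrial carbonyl reductase gene, was at 48.7 ± 17.2 CPM in PANC1OR and 20.1 ± 1.87 in PANC1 and rose by 1.27 ± 0.30 in log2 (adjusted p = 0.0206), a call kept only without PANC1OR replicate 3 among the fits without 1 library (0.0651 to 0.0883 in the other 5). PALLD, the gene of the actin-crosslinking protein palladin and the third neighbour on the same side, fell to 12.3 ± 4.50 CPM in PANC1OR, against 94.8 ± 10.2 in PANC1 (-2.93 ± 0.31, adjusted p = 0.000474). Around SH3RF3, the 1 neighbour called lower was SH3RF3-AS1 and the 1 called higher was SOWAHC, an ankyrin repeat gene, which rose to 103.3 ± 9.45 CPM in PANC1OR, against 43.9 ± 3.54 in PANC1 (adjusted p = 0.00221). Next to SH3RF3, SEPTIN10, a septin gene, was at 228 ± 58.6 CPM in PANC1OR and 137.5 ± 2.35 in PANC1 (adjusted p = 0.0599), and was called without PANC1OR replicate 3 (0.000198). Beside SH3RF2, the leucyl-tRNA synthetase gene LARS1 stood at -0.74 ± 0.21 (adjusted p = 0.0442), called only without PANC1OR replicate 3 among the fits without 1 library (0.0719 to 0.166 in the other 5), and the pseudogene TRPC6P2 at 0.99 ± 0.40 (adjusted p = 0.141, and 0.0187 without PANC1OR replicate 3). Among the 10 neighbours of SH3RF2, 1 was called higher and 1, LARS1, lower. Among the 10 neighbours of SORBS3, 2 were called higher and 0 lower. The nearest on each side of SORBS3 were not called. These were the calcineurin subunit gene PPP3CC and the LIM protein gene PDLIM2, at 0.21 ± 0.22 and 0.44 ± 0.39 (adjusted p of 0.594 and 0.511).

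**Figure D4:**
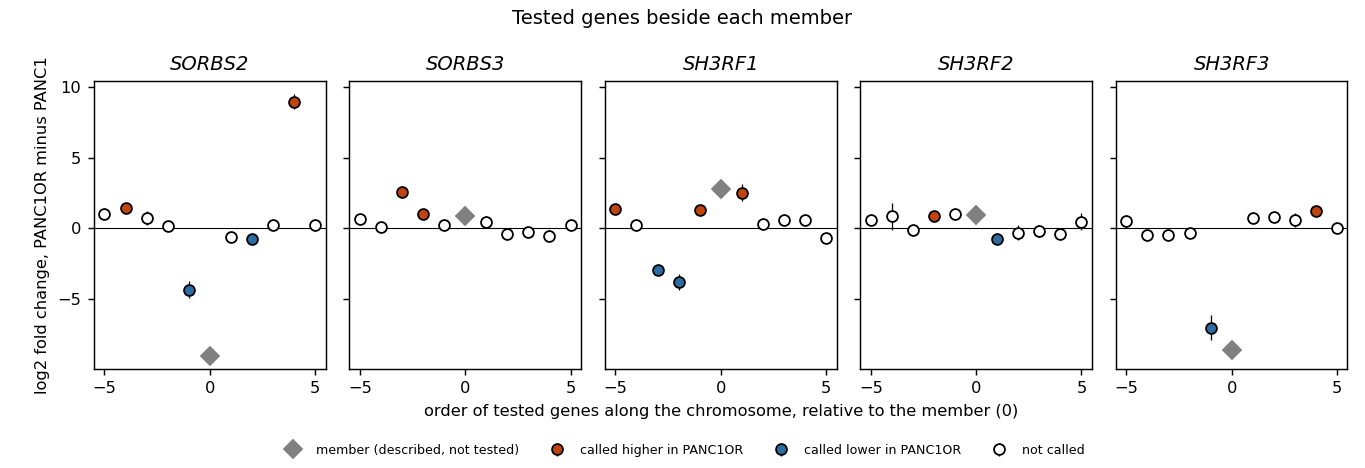
Log2 fold change of PANC1OR minus PANC1 for the 5 tested genes on each side of each scaffold gene, in their order along the chromosome, with SE bars. The diamond at position 0 is the scaffold gene itself. Beside SORBS2 and SH3RF3 the nearest gene on the left is called lower, and of all 50 neighbours 9 are called higher and 6 lower.

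By the test over all 6 libraries without GC offsets, partners of the SORBS proteins were called about as often as all tested genes. Of 24 genes for proteins reported to bind them, 3 rose and 1 fell, 16.7% beside 17.8% of all tested genes, with a median log2 fold change of 0.20. INSR, the insulin receptor gene, was at 35.1 ± 1.295 CPM in PANC1OR and 3.79 ± 0.399 in PANC1, and rose by 3.20 ± 0.21 in log2 (adjusted p = 6.25e-05). ABL2, the gene of the kinase ARG after which ArgBP2 is named, rose to 295 ± 23.0 CPM in PANC1OR, against 108 ± 10.4 in PANC1 (1.45 ± 0.17, adjusted p = 0.000862). PAK1, a kinase downstream of RAC1, was at 152 ± 6.10 CPM in PANC1OR and 71.7 ± 4.35 in PANC1 (1.09 ± 0.16, adjusted p = 0.00264). WASF1, which encodes the actin regulator WAVE1, fell by 0.70 ± 0.17 in log2 (adjusted p = 0.0269), a call lost without PANC1OR replicate 1 or 2 or PANC1 replicate 1 or 3 (0.1035 to 0.136). VCL, the vinculin gene, was at 759 ± 54.8 CPM in PANC1OR and 1119 ± 26.1 in PANC1 (adjusted p = 0.0504), and is named here with its value known. Without PANC1OR replicate 3, 9 of these 24 genes were called higher and 7 lower, beside 44.1% of all genes. With GC offsets 14 were called, beside 39% of all genes. With PANC1OR replicate 3 and PANC1 replicate 2 both left out, 20 were called, beside 58.5%. Without PANC1OR replicate 1, 3 were called, beside 12%.

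Genes of the JNK cascade and other SH3RF partners changed in both directions. Of 26 listed, 25 were tested, and 3 rose and 3 fell, 24% beside 17.8% of all tested genes, with a median log2 fold change of -0.01. RAC1, the GTPase that SH3RF1 binds, fell to 303 ± 29.5 CPM in PANC1OR, against 559.5 ± 3.47 in PANC1 (-0.88 ± 0.17, adjusted p = 0.00784). MAPK9, which encodes the kinase JNK2, was at 32.8 ± 5.33 CPM in PANC1OR and 73.7 ± 1.39 in PANC1 (-1.16 ± 0.19, adjusted p = 0.00452). SHROOM3, the gene of an actin-binding protein of apical constriction, was at 0.101 ± 0.0561 CPM in PANC1OR and 1.48 ± 0.478 in PANC1 (adjusted p = 0.00141), and was named to complete the count. RAC1, MAPK9 and SHROOM3 remained called in each fit without 1 library. SHROOM3 passed the filter on low counts only through its PANC1 reads, so for SHROOM3 only a lower call was possible.

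The genes of that list that rose did so by less than 1 in log2. HERPUD1, which encodes an endoplasmic reticulum protein that SH3RF1 ubiquitinates, rose by 0.75 ± 0.19 (adjusted p = 0.0278), PDCD6IP, which encodes the endosomal protein ALIX, by 0.74 ± 0.21 (0.0456), and MAP3K12, a kinase of the JNK cascade named to complete the count, by 0.86 ± 0.25 (0.0468). HERPUD1 and PDCD6IP were called only without PANC1OR replicate 3 among the fits without 1 library, with adjusted p of 0.0580 to 0.151 and 0.135 to 0.179 in the other 5. MAP3K12 was not called without PANC1OR replicate 1 or any 1 PANC1 library (0.0856 to 0.191). The list thus had 0 called higher and 3 lower without PANC1OR replicate 1, or PANC1 replicate 1, 2 or 3, fits that called 9.31% to 12.2% of all genes. It had 6 higher and 11 lower without PANC1OR replicate 3, where 44.1% of all genes were called. JUN, the transcription factor at the end of the cascade, is named with its value known and stood at 125 ± 53.1 CPM in PANC1OR and 89.1 ± 27.0 in PANC1 (adjusted p = 0.381).

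Other adaptors with SH3 domains changed in both directions, of 45 genes examined and 39 tested 8 rising and 2 falling, 25.6% beside 17.8% of all tested genes, with a median log2 fold change of 0.20. EPS8, an actin capping and bundling protein gene, rose to 234 ± 41.0 CPM in PANC1OR, against 48.6 ± 2.16 in PANC1 (2.27 ± 0.20, adjusted p = 0.000191). SH3D19, a further gene with several SH3 domains, was at 135 ± 24.1 CPM in PANC1OR and 54.7 ± 5.75 in PANC1 (1.303 ± 0.204, adjusted p = 0.00328). The genes that fell were the RAC exchange factor gene ARHGEF6 at -2.09 ± 0.28 (adjusted p = 0.00151) and the LIM and SH3 protein gene NEBL at -1.65 ± 0.33 (adjusted p = 0.00971, and 0.0504 without PANC1 replicate 3). The other 6 that rose were DNMBP, FNBP1, ITSN1, SNX9, STAC and STAC3, at 0.65 to 1.78 in log2. ITSN1 and SNX9 were called only without PANC1OR replicate 3 among the fits without 1 library (0.0571 to 0.124 and 0.0579 to 0.146 in the other 5), and DNMBP was not called without PANC1 replicate 3 (0.0552). The list had 13 higher and 11 lower without PANC1OR replicate 3, where 44.1% of all genes were called, and 5 higher and 1 lower without PANC1 replicate 3, where 9.31% were.

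**Figure D5:**
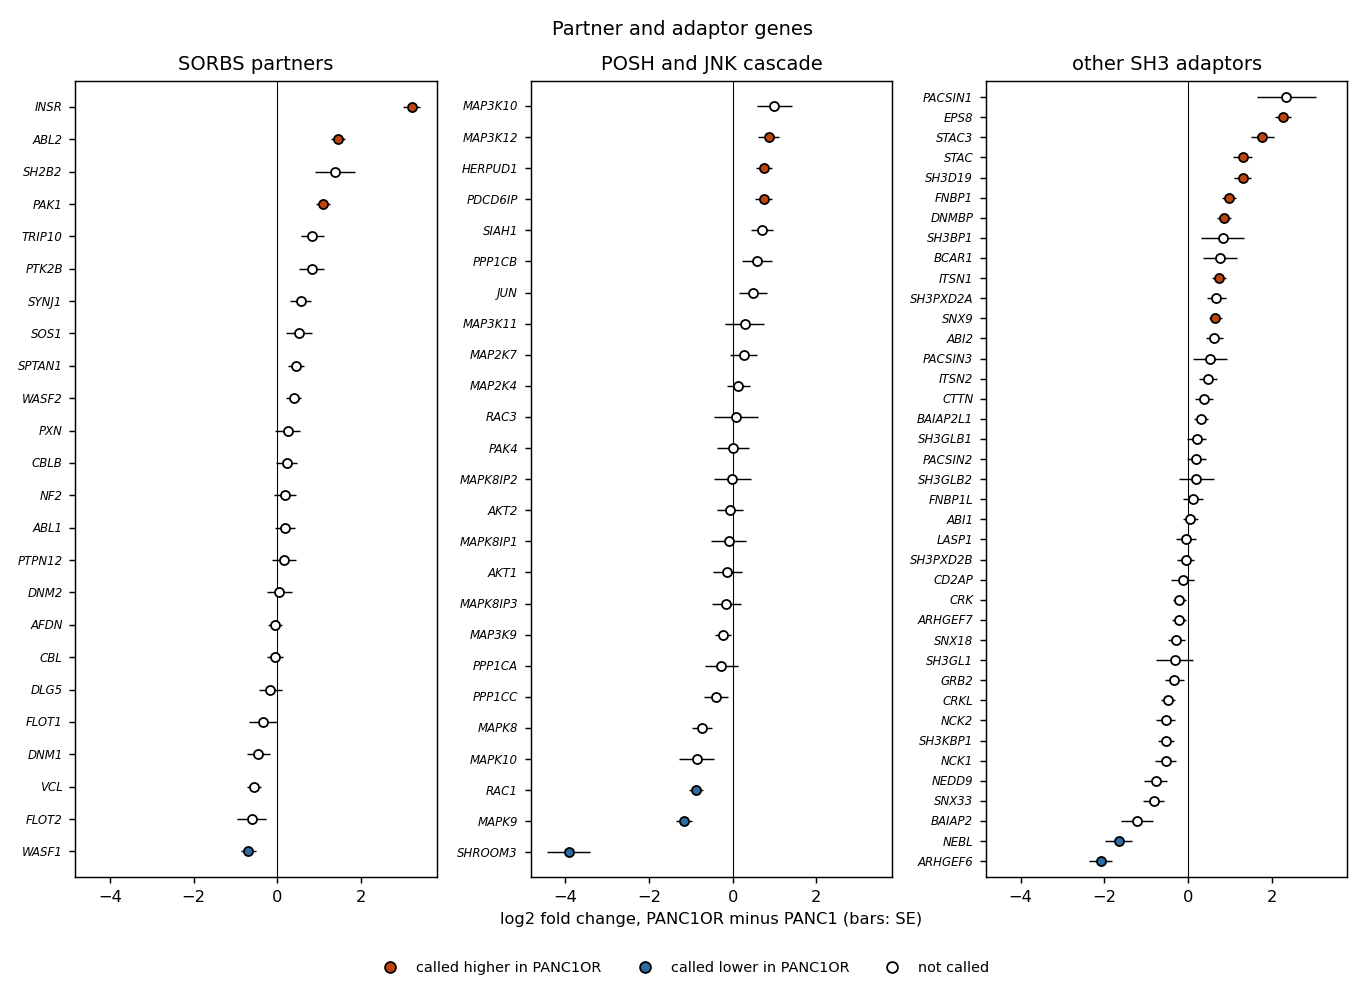
Log2 fold change of PANC1OR minus PANC1 with SE for every tested gene of the SORBS partner, POSH and JNK cascade, and other SH3 adaptor lists, sorted within each list. Filled points passed an adjusted p of 0.05 by edgeR's quasi-likelihood test. SHROOM3 at -3.92 lies furthest left, and INSR at 3.20 furthest right.

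For each scaffold gene the 3 nearest profiles were sought among 12526 protein-coding genes that averaged 1 CPM or more, by the root mean square distance over the 6 libraries of log2(CPM + 0.1) centred on each gene's mean. SORBS2 and SH3RF3 were among each other's 3 nearest, at a distance of 0.38, which restates the near absence from PANC1OR by which they were chosen. The others nearest to SORBS2 were the zinc finger gene ZNF354C (0.29) and the phosphatase gene PTPN13 (0.53), and those nearest to SH3RF3 were SIRPA (0.37), which encodes a receptor for CD47, and CDH2 (0.43), the N-cadherin gene. Nearest to SH3RF1 were SYNE1 (0.07), which encodes a nesprin, JCAD (0.10), a gene of cell junctions, and ANK2 (0.11), which encodes an ankyrin. Nearest to SH3RF2 were the receptor gene GPRC5A (0.06), the protein kinase C gene PRKCE (0.06) and TRAK1 (0.07), a gene of mitochondrial transport. Among those nearest to SORBS3 were the kinase gene BRSK2 (0.03) and LYPLA2 (0.08), a thioesterase gene. BRSK2 was at 45.0, 38.0 and 97.5 CPM in PANC1OR replicates 1 to 3 and 31.8, 37.7 and 29.9 CPM in PANC1 replicates 1 to 3, with the same high PANC1OR replicate 3 as SORBS3.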

How the data were processed

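RNA of 3 PANC1OR and 3 PANC1 cultures was sequenced after preparation with an mRNA library kit, per the labels. The deposited values are read counts per gene, without normalization. Per the series' design text and the submitters' processing notes, FastQC 0.11.5 served for quality checks, cutadapt removed adaptors, STAR 2.5 mapped the reads to GRCh38, and featureCounts of Subread 1.6.2 counted them. The sources used here do not give the annotation release, the strand setting or the handling of reads with several alignments. The table held 5 columns without values.

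A filter on low counts (filterByExpr, edgeR 4.0.16, R 4.3.3) passed 18751 genes. TMM factors scaled the libraries. The lines were compared over the 6 libraries by the quasi-likelihood F test, with no covariate. A gene was called at a Benjamini-Hochberg adjusted p under 0.05 over all tested genes. Standard errors derive from the F statistic. The common biological coefficient of variation was 0.281. A group without reads was given a floor of 3 reads, 0.0547 CPM over PANC1OR, which like the counting intervals (95%, exact binomial) covers counting error only. At this depth 0 or 1 read does not show that a gene is silent.

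Positions on GRCh38, exon lengths and GC content came from GENCODE release 44, matched by identifier for 58207 of 58735 rows, which need not be the authors' release. The closest replicates, PANC1OR 1 and 2, differed beyond sampling noise (chi-square of 3.59 per degree of freedom). Alternatives were DESeq2 1.42.0 size factors and Wald test, the likelihood ratio test, no filter, a replicate block, GC offsets and leaving out libraries. Named genes were the 5 scaffold genes, overlapping genes, nearest neighbours, up to 4 genes per list with the smallest p and a mean of 1 CPM or more, and the nearest profiles; others are marked. Some genes that the rule names are not reported here. The scaffold genes and lists were chosen with earlier results of these data known.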

Additional observations from a re-analysis of the deposited data

How the results depend on the processing

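SORBS2 and SH3RF3 were lower and SH3RF1, SH3RF2 and SORBS3 higher in PANC1OR under every alternative run, a direction their choice from this comparison bears on. All tested genes had 7307 calls (39% of them) with GC offsets. They had 11422 (58.5%) with the libraries PANC1OR replicate 3 and PANC1 replicate 2 both left out, and 1821 to 8663 without 1 library. In these last fits the SORBS partners had 3 to 16 calls, the JNK cascade list 3 to 17, the other SH3 adaptors 6 to 24 and the neighbours 8 to 26. With GC offsets these 4 lists had 14, 12, 26 and 28 calls, and with the 2 libraries left out 20, 22, 33 and 32. The likelihood ratio test called 7 of the 24 SORBS partners, beside 22.2% of all tested genes. PDLIM2 stood at -0.0295 without PANC1OR replicate 3, and at up to 0.6705 without another library. The cause was not tested. With the replicate block, 3 of the JNK cascade list and 8 neighbours were called, and 2324 genes in all (12.4%). Correlations of same-numbered deviations were 0.46, -0.44 and -0.22. They cannot decide whether the replicate numbers pair the samples, since the GC shifts of PANC1OR replicate 3 and PANC1 replicate 2 enter these deviations. Level per kb by the longest transcript was an alternative added after seeing the data. Fitted fold changes of SORBS2 and SH3RF3 rest on 1 read and ran from -10.80 to -8.29 and from -10.19 to -8.29.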
